A study of Homo sapiens with 26 samples.

Results

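The genes described here are 9 members of the MHC class I antigen presentation pathway, namely HLA-B, HLA-C, HLA-E, HLA-F, B2M, TAP1, TAP2, TAPBP and NLRC5. They were chosen by name, as the identifiers in the deposited count tables that map to these symbols, and make up 9 of the 62778 gene identifiers found over 3 tables. All 9 were present in every table, and all 9 passed the filter on low counts in each of the 3 cell lines. RNA was measured by poly(A) sequencing in 26 libraries of the pancreatic ductal adenocarcinoma lines Panc10.05, BxPC3 and AsPC-1, in which HNF4A, the gene of the nuclear receptor HNF4α, had been induced or repressed. HNF4α is made as isoforms from a pair of promoters called P1 and P2, and the comparisons ask how the class I genes differ when either isoform is added or either promoter is repressed.

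In Panc10.05 and BxPC3 the groups are labelled P1-a2, P2-a8 and NC, with 2 libraries each. All of them, controls included, received doxycycline, which switches on an inducible construct. By the sample titles, Panc10.05 controls carried GFP and BxPC3 controls carried EV. Every BxPC3 group received 500 ng/mL doxycycline. In Panc10.05 the P1-a2 and NC groups received 25 ng/mL and the P2-a8 group 12.5 ng/mL, so isoform and dose changed together there. In AsPC-1, CRISPR interference, in which a catalytically inactive Cas9 is guided to a promoter to lower transcription, was directed to P1 (guides sgP1E and sgP1J), to P2 (sgP2D and sgP2G) or to both (sgDual2 and sgDual3). With 2 libraries for each guide, every target had 4, and sgNC, the control guide, had 2. Tests by target took these 4 libraries as replicates without regard to guide, so their SE and p-values do not account for differences between guides. The labels number the replicates but do not say that they were separate cultures, so p-values measure the spread between these libraries, which may be technical. Each line has a count table and a series of library numbers of its own, and levels were not tested across lines.

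MHC class I molecules display peptides from inside the cell to CD8+ T cells. A polymorphic heavy chain (here HLA-B and HLA-C) or a less variable one (HLA-E, which engages NKG2A receptors, and HLA-F) folds with the shared light chain β2-microglobulin, the product of B2M. Peptides made by the proteasome are pumped into the endoplasmic reticulum by the transporter formed by TAP1 and TAP2, and tapasin, the product of TAPBP, holds the empty heavy chain at the transporter while a peptide is loaded. NLRC5 is the transactivator of class I genes and acts at a conserved set of promoter boxes, alongside interferon response elements and NF-κB sites. Epithelial cells carry class I molecules on their surface, and tumours of the pancreas often show low levels of them.

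The promoter sequences that these regulators read are shown first, because members with and without exact matches to the same letters are set side by side below. RefSeq windows (GRCh38.p14) of 300 bases were matched for 7 of the 9 members, and HLA-E and NLRC5 had no entry. The 250 bases before the start site are printed 5′ to 3′ on the gene's strand for the heavy chains HLA-B and HLA-C, which lie side by side, and for B2M, TAPBP and TAP1, whose responses to HNF4A repression differed. The positions are chr6:31357180-31357429 (minus) for HLA-B, chr6:31272093-31272342 (minus) for HLA-C, chr15:44711267-44711516 (plus) for B2M, chr6:33314079-33314328 (minus) for TAPBP and chr6:32853705-32853954 (minus) for TAP1. Capitals mark matches, on either strand, to the interferon response letters GAAANNGAA, the STAT letters TTCNNNGAA, the NF-κB enhancer A letters GGGGATTCC, the X2 box TGACGC, the Y box CCAAT or the HNF4 letters CAAAGTCCA.
HLA-B: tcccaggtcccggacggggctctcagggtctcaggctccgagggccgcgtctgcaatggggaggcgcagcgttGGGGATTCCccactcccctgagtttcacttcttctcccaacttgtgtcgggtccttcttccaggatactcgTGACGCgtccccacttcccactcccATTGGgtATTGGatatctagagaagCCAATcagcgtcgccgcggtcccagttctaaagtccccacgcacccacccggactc
HLA-C: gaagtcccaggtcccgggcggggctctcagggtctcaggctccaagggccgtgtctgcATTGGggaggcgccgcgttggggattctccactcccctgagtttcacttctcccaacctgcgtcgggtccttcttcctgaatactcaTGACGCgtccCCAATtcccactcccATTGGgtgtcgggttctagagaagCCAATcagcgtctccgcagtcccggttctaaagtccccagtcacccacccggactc
B2M: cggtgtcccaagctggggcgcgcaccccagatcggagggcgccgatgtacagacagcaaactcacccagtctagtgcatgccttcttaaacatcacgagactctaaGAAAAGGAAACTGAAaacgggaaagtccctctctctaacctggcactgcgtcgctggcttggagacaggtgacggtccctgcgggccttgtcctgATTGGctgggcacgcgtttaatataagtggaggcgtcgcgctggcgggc
TAPBP: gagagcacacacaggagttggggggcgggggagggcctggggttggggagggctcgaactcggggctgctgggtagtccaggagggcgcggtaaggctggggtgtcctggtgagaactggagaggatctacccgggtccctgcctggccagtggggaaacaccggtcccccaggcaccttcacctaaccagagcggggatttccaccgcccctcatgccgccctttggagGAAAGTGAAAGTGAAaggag
TAP1: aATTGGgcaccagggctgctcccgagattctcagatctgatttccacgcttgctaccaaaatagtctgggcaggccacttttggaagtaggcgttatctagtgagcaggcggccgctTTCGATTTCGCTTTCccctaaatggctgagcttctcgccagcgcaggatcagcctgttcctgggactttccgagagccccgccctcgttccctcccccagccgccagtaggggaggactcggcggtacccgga

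Read on both strands, the X2 box TGACGC was matched in HLA-B from -106 to -101 and in HLA-C from -105 to -100, counted from the start site, and also in TAP2 from -35 to -30. It was present in 9.14% of the 35116 promoter windows of this length. The enhancer A letters GGGGATTCC were matched in HLA-B only among the members, from -177 to -169, and in 0.285% of all windows. Matches to GAAANNGAA stood in HLA-F, B2M, TAP1, TAP2 and TAPBP, and in 8.11% of all windows. In B2M, TAP1 and TAPBP a pair of such matches overlapped. The Y box letters CCAAT were matched in HLA-B, HLA-C, HLA-F, B2M and TAP1 and in 34.6% of all windows. TTCNNNGAA, which reads the same on both strands, was matched only in a second TAP1 window and in 7.66% of all windows. CAAAGTCCA was found in 0.384% of windows and in none of the members' windows. These matches are letters in a window and show neither binding nor its absence.

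Of the members, 7 lie on chromosome 6, in or near the MHC. On GENCODE v29 (GRCh38) these are HLA-F (29722775 to 29738528, plus), HLA-E (30489467 to 30494205, plus), HLA-C (31268749 to 31272130, minus), HLA-B (31269491 to 31357188, minus), TAP2 (32821833 to 32838780, minus), TAP1 (32845209 to 32853978, minus) and TAPBP (33299694 to 33314387, minus). B2M lies on chromosome 15 (44711487 to 44718877, plus) and NLRC5 on chromosome 16 (56989485 to 57083531, plus). The count tables list them by Ensembl identifier, ENSG00000234745 for HLA-B, ENSG00000204525 for HLA-C, ENSG00000204592 for HLA-E, ENSG00000204642 for HLA-F, ENSG00000166710 for B2M, ENSG00000168394 for TAP1, ENSG00000204267 for TAP2, ENSG00000231925 for TAPBP and ENSG00000140853 for NLRC5. The HLA-B model overlaps HLA-C on the same strand, TAP1 overlaps PSMB9 and PSMB8-AS1 on the opposite strand, and HLA-F overlaps HLA-F-AS1. TAP2 overlaps a gene on its own strand and NLRC5 overlaps antisense genes. The strand and multi-mapping settings of the counting are not given in the sources used here, so counts of these genes are uncertain to that extent. Between 1.51% (HLA-F) and 6.79% (HLA-C) of the 50-base words of the 4 heavy chain transcripts occur in another class I gene, and reads made of such words could have been assigned to a relative.

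The tables summed to 34618745 to 46827673 counts for a Panc10.05 library, 26369154 to 37483772 for BxPC3 and 26079388 to 50662077 for AsPC-1. HNF4A, checked first, stood at 0.240 and 0.0580 CPM (counts scaled by the TMM-normalised library size) in the Panc10.05 NC libraries, at 10.7 and 12.98 CPM under P1-a2 and at 37.7 and 37.6 CPM under P2-a8. In BxPC3 it was at 1.08 and 0.464 CPM in NC, 9.76 and 11.6 CPM under P1-a2, and 12.6 and 14.2 CPM under P2-a8. In AsPC-1, HNF4A was at 205.7 and 219.8 CPM with sgNC, from 108.9 to 145.5 CPM with sgP1, from 76.8 to 93.9 CPM with sgP2 and from 3.19 to 13.6 CPM with sgDual. The epithelial markers EPCAM, KRT8, KRT18, KRT19 and CDH1 summed to between 4670 and 18000 CPM in every library. Of 5 leukocyte markers, PTPRC had at most 5 counts, NKG7 at most 1 and CD3E at most 21 in any library. CD14 had between 14 and 115 counts, and CD79A reached 133 in Panc10.05, 766 in BxPC3 and 6 in AsPC-1.

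**Figure D1:**
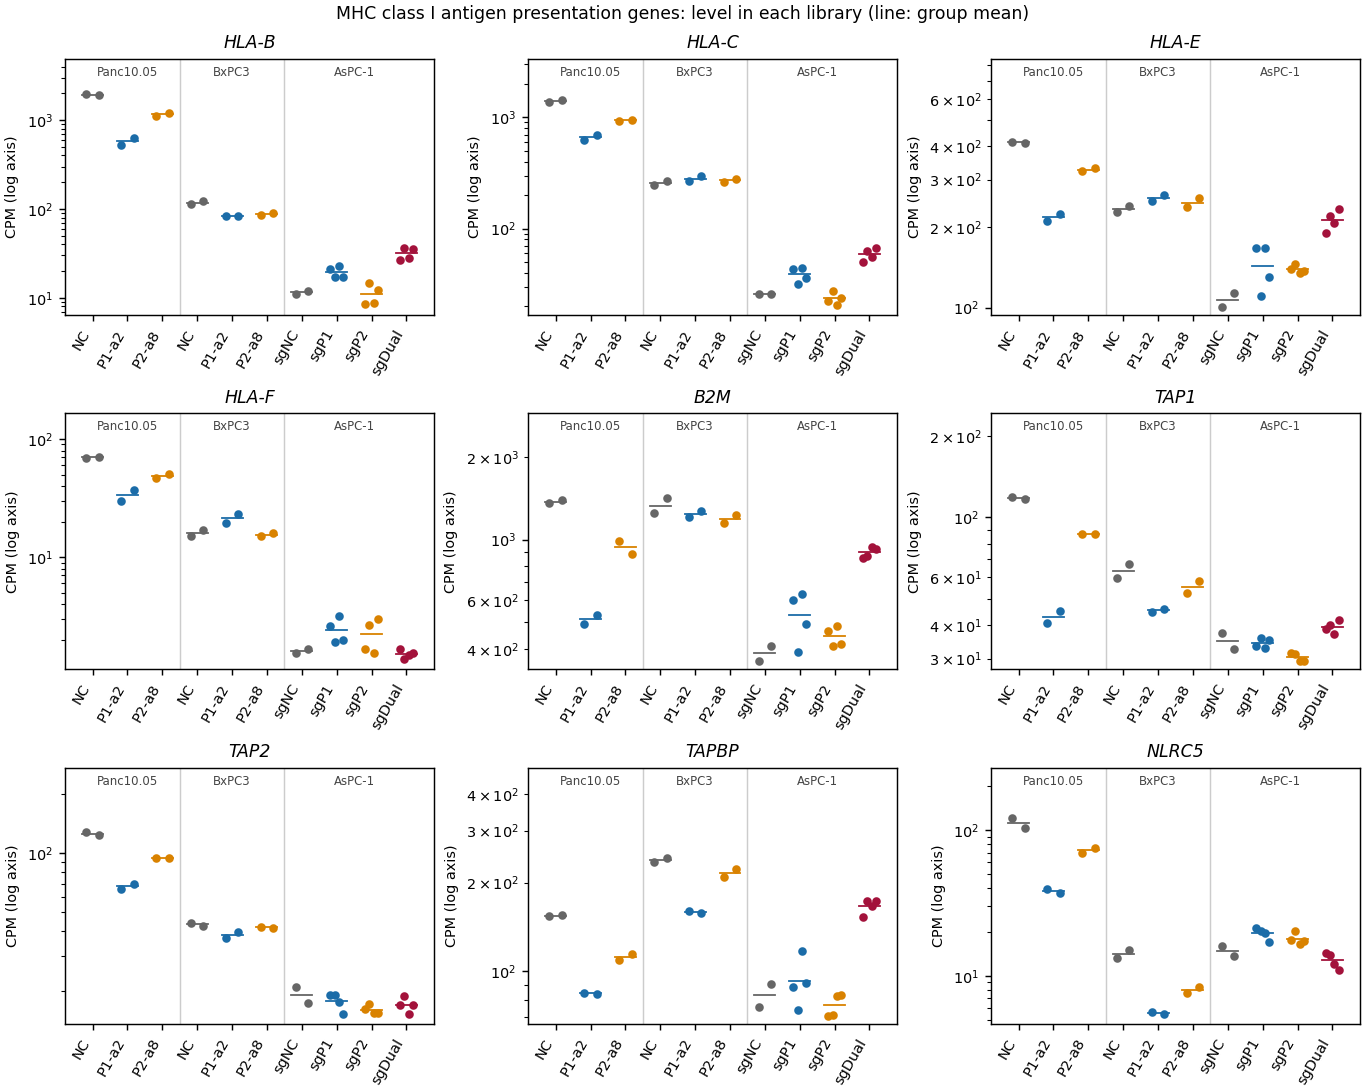
Level of each of the 9 genes in each of the 26 libraries, in CPM on a log axis, with the 10 groups of Panc10.05, BxPC3 and AsPC-1 along the horizontal axis; points are libraries and bars are group means. In Panc10.05 every induced library lies below both NC libraries for all 9 genes, and in AsPC-1 the sgDual libraries lie above both sgNC libraries for HLA-B, HLA-C, HLA-E, B2M and TAPBP. The share of all genes whose libraries separate in this way was not counted.

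The resting order of the members differed between the lines when control levels were set per length of exon sequence (CPM per kilobase of the union of exons). How completely reads of each line's own HLA alleles were counted is not known. The part of this in the places of the polymorphic HLA-B and HLA-C was not tested. In the Panc10.05 NC libraries HLA-B led at 636 CPM per kilobase, followed by HLA-C at 560.0 and B2M at 226, with no overlap between the 2 libraries of these neighbours. In BxPC3, B2M led at 219 CPM per kilobase, HLA-C followed at 103, and HLA-B stood at 38.5. In AsPC-1, B2M led at 63.4 and HLA-E followed at 36.0 CPM per kilobase, while HLA-B stood at 3.77. NLRC5, the transactivator, was the lowest of the 9 in Panc10.05 (9.02 CPM per kilobase) and BxPC3 (1.15), and HLA-F was the lowest in AsPC-1 (0.371). With the length of the principal transcript in place of the union of exons, the same genes led and closed the order in each line. The ranges of the 2 control libraries did not overlap between any neighbours in the order by union of exons. By principal transcript, HLA-B and TAP2 overlapped in AsPC-1, HLA-F and TAP2 stood above TAP1 in Panc10.05, and TAPBP stood above HLA-E in BxPC3 and, with overlap, in AsPC-1, so the order of these neighbours depends on the length used.

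In Panc10.05, all 9 genes fell under P1-a2 and all 9 fell, by less, under P2-a8, whose doxycycline dose was below that of P1-a2 and NC. HLA-B was reduced to 30.0% of its control level by P1-a2, NLRC5 to 34.2%, TAP1 to 36.3% and B2M to 37.2%. Under P2-a8 the same 4 genes stood at 59.8%, 65.0%, 73.3% and 68.3% of control. An adjusted p under 0.05 by edgeR's quasi-likelihood test is used as the threshold throughout. Under P1-a2, 62.0% of the 17247 genes tested passed it and 30.5% passed it as lower, so many genes of this line moved as well. The members' median log2 fold change was -1.09 beside 0.02 over all genes tested. With a log2 fold change of at least 1 in size added to the threshold, 6 of the 9 members passed, against 19.6% of all genes.

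Among the heavy chains, HLA-B was at 1948 and 1932 CPM in the NC libraries of Panc10.05, at 530.0 and 634 CPM under P1-a2, and at 1117 and 1202 CPM under P2-a8. The 3 groups did not overlap and P1-a2 was lowest. The log2 fold change of HLA-B under P1-a2 was -1.74 (SE 0.07), with an adjusted p of 1.22e-21. HLA-C was at 1387 and 1423 CPM in NC, 624 and 698 CPM under P1-a2, and 924 and 953 CPM under P2-a8. Its log2 fold change under P1-a2 was -1.09 (SE 0.06, adjusted p 2.58e-19), smaller in size than that of its neighbour HLA-B. HLA-E, the ligand of an inhibitory receptor of natural killer cells, was at 413.5 and 412 CPM in NC, 210.5 and 224 CPM under P1-a2, and 322 and 332 CPM under P2-a8. HLA-F went from 69.4 and 71.1 CPM in NC to 30.1 and 37.2 CPM under P1-a2, and to 46.4 and 50.5 CPM under P2-a8. The fall under P1-a2 on the log2 scale was -0.93 (SE 0.06, adjusted p 1.33e-17) for HLA-E and -1.06 (SE 0.08, adjusted p 2.93e-14) for HLA-F.

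B2M, the gene of the shared light chain, was at 1355 and 1393 CPM in NC, at 490.7 and 533 CPM under P1-a2, and at 990.5 and 888 CPM under P2-a8. Its log2 fold change under P1-a2 was -1.43 (SE 0.06, adjusted p 6.49e-23). TAP1 was at 119 and 117 CPM in NC, 40.7 and 45.1 CPM under P1-a2, and 86.5 and 86.8 CPM under P2-a8. It fell by 1.46 on the log2 scale under P1-a2 (SE 0.07, adjusted p 1.87e-22). The other transporter gene moved less: TAP2 was at 128 and 123 CPM in NC, 65.8 and 69.9 CPM under P1-a2, and 94.2 CPM in both P2-a8 libraries. TAPBP, encoding tapasin, was at 154 and 155 CPM in NC, 84.4 and 84.1 CPM under P1-a2, and 109.6 and 114 CPM under P2-a8. TAP2 and TAPBP fell by 0.89 and 0.87 on the log2 scale under P1-a2 (SE 0.06 each, adjusted p 4.1e-16 and 2.75e-16). NLRC5 was at 121 and 103 CPM in NC, 39.5 and 37.0 CPM under P1-a2, and 69.4 and 76.0 CPM under P2-a8. The NLRC5 log2 fold change under P1-a2 was -1.55 (SE 0.07, adjusted p 3.8e-20).

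For P2-a8 against NC in Panc10.05, 9 of 9 members fell, where 46.2% of genes passed in either direction and 22.5% as lower. The log2 fold changes ran from -0.74 for HLA-B (SE 0.07, adjusted p 2.3e-11) and -0.62 for NLRC5 to -0.34 for HLA-E (SE 0.06, adjusted p 6.04e-06), with a median of -0.54 beside 0.00 over all genes. None of the 9 reached a log2 fold change of 1 in size. Between the isoforms, P1-a2 had the lower level for 9 of 9 members, where 46.9% of genes passed in either direction and 24.7% as lower. TAP1 differed by -1.01 (SE 0.07, adjusted p 1.92e-16) and HLA-B by -0.99 (SE 0.07, adjusted p 2.02e-14) on the log2 scale, and TAPBP by -0.41 (SE 0.06, adjusted p 4.01e-07). HNF4A itself was also lower with P1-a2, so the isoform with the smaller HNF4A level in this line had the lower class I levels. The doses also differed between these groups, and isoform and dose cannot be told apart. In bulk RNA, fewer cells expressing a gene and less RNA per cell cannot be told apart either. The summed epithelial markers stood at 4670 and 4690 CPM in NC and between 6650 and 8490 CPM in the induced libraries. The summed leukocyte markers stood at 0.600 and 0.609 CPM in NC and between 1.80 and 3.20 CPM in the induced libraries, with PTPRC and NKG7 at 0 counts throughout this line, and the part of either list in the result was not tested.

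**Figure D2:**
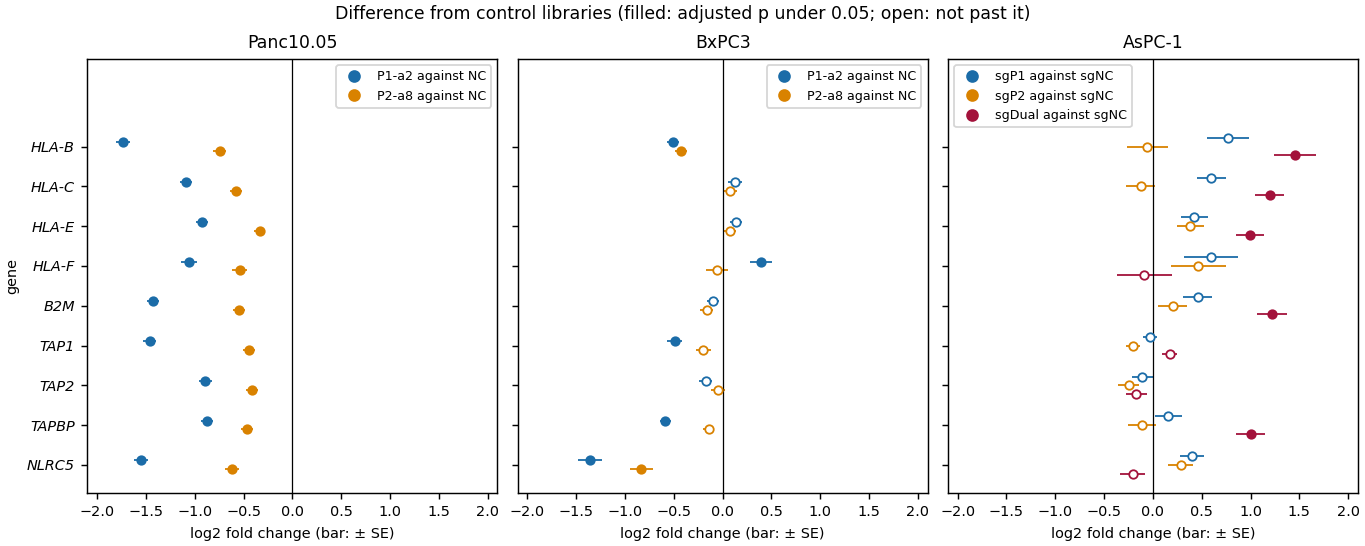
Log2 fold change of each of the 9 genes from the control libraries in each line, with bars of 1 SE, by edgeR's quasi-likelihood fit; filled points have an adjusted p under 0.05. In Panc10.05 all points are filled and lie left of 0, in BxPC3 the filled points are those of HLA-B, HLA-F, TAP1, TAPBP and NLRC5, and in AsPC-1 filled points are seen for sgDual alone.

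In BxPC3 the response was smaller and split the pathway. Under P1-a2, NLRC5, TAPBP, HLA-B and TAP1 fell, HLA-F rose, and HLA-C, HLA-E, B2M and TAP2 did not pass. That is 5 of 9 members, where 32.0% of the 17635 genes tested passed. The median log2 fold change of the members was -0.17 beside -0.01 over all genes. NLRC5 went from 13.4 and 15.1 CPM in NC to 5.62 and 5.49 CPM under P1-a2 and to 7.67 and 8.33 CPM under P2-a8. Its log2 fold change was -1.36 under P1-a2 (SE 0.12, adjusted p 1.17e-05) and -0.83 under P2-a8 (SE 0.12, adjusted p 0.00159), so the transactivator was lower with either isoform. HLA-B went from 113 and 122 CPM in NC to 82.6 and 82.5 CPM under P1-a2 and to 86.0 and 89.0 CPM under P2-a8. HLA-B fell by 0.51 on the log2 scale under P1-a2 (SE 0.06, adjusted p 7.07e-05) and by 0.43 under P2-a8 (SE 0.06, adjusted p 0.00126).

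TAPBP was at 234 and 242 CPM in BxPC3 NC, 159.7 and 158 CPM under P1-a2, and 209 and 222 CPM under P2-a8. Under P1-a2 it fell by 0.59 on the log2 scale (SE 0.05, adjusted p 1.46e-05). TAP1 was at 59.6 and 67.4 CPM in NC, 44.6 and 45.9 CPM under P1-a2, and 52.7 and 58.1 CPM under P2-a8, a log2 fold change under P1-a2 of -0.49 (SE 0.08, adjusted p 0.000601). HLA-F, at 15.2 and 17.1 CPM in NC, was at 19.3 and 23.3 CPM under P1-a2, higher by 0.39 on the log2 scale (SE 0.11, adjusted p 0.0197). That rise did not pass without NC replicate 1 (0.31, adjusted p 0.151) or without P1-a2 replicate 2 (0.25, adjusted p 0.178). B2M was at 1245 and 1415 CPM in NC and at 1212 and 1270 CPM under P1-a2, and the groups overlapped. Its log2 fold change was -0.10 with a 95% interval from -0.23 to 0.03. HLA-C was at 245 and 271 CPM in NC and 267.5 and 297 CPM under P1-a2 (log2 fold change 0.13, interval -0.01 to 0.27), and HLA-E at 227 and 239.8 CPM against 249.7 and 263 CPM (0.13, interval 0.02 to 0.25). TAP2 was at 44.2 and 42.6 CPM in NC and 37.1 and 39.8 CPM under P1-a2 (log2 fold change -0.17, adjusted p 0.0807).

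Libraries with the same replicate number deviated together in BxPC3, and with the replicate number as a block 9 of 9 members passed under P1-a2, where 41.6% of genes passed in that fit. The additional calls were HLA-C (adjusted p 0.013) and HLA-E (0.0103) as higher, and B2M (0.0444) and TAP2 (0.0342) as lower. TAP2 also passed with libraries scaled by total counts alone (adjusted p 0.0465). For P2-a8 against NC, 2 of 9 members passed, HLA-B and NLRC5, both lower, where 6.99% of genes passed. With the block 5 passed, where 16.4% of genes did, the additional ones being B2M (-0.16, adjusted p 0.00446), TAP1 (-0.20, adjusted p 0.0204) and TAPBP (-0.15, adjusted p 0.0215). B2M also passed with no filter on low counts (adjusted p 0.0375). Between the isoforms in BxPC3, 4 of 9 members passed, where 22.5% of genes did. TAPBP (-0.44, SE 0.05, adjusted p 0.000303), NLRC5 (-0.53, SE 0.13, adjusted p 0.0126) and TAP1 (-0.29, SE 0.08, adjusted p 0.0198) were lower and HLA-F (0.46, SE 0.11, adjusted p 0.014) was higher with P1-a2 than P2-a8. Without P1-a2 replicate 2 only TAPBP passed, where 13.9% of genes did, and without P2-a8 replicate 2 TAPBP and HLA-F did, where 16.1% of genes did. TAP1 did not pass without P1-a2 replicate 1 (adjusted p 0.0873), nor HLA-F without P2-a8 replicate 1 (0.0556). The summed leukocyte markers were at 17.8 and 22.8 CPM in the P1-a2 libraries of BxPC3 and at 2.31 and 2.98 CPM in NC. CD79A made up most of that sum, with up to 766 counts in a library, while NKG7 had 0 counts in every library of this line and CD3E had between 5 and 21. The summed epithelial markers were at 5700 and 6130 CPM in NC, 8640 and 9080 CPM under P1-a2 and 7220 and 7260 CPM under P2-a8, and their part in the result was not tested.

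The lines differed in how the class I genes responded, by a test of the difference between responses (an interaction term in a joint fit of 12 libraries). Under P1-a2, the log2 fold change of 8 of the 9 members was lower in Panc10.05 than in BxPC3, where 36.4% of the 19372 genes tested differed. HLA-F differed by -1.44 (SE 0.14, adjusted p 7e-08), B2M by -1.31 (SE 0.10, adjusted p 4.58e-10), HLA-B by -1.22 (SE 0.10, adjusted p 1.79e-09) and HLA-C by -1.20 (SE 0.09, adjusted p 8.27e-10) on the log2 scale. NLRC5 was the member that did not pass, with a difference of -0.18 and a 95% interval from -0.45 to 0.10. So NLRC5 was reduced to 34.2% of control in Panc10.05 and to 39.1% in BxPC3, while B2M was at 37.2% in the former and 93.3% in the latter. Under P2-a8, 7 members differed between the lines, all with the lower log2 fold change in Panc10.05, where 23.5% of genes differed. The exceptions were TAP1 (-0.25, adjusted p 0.0858) and NLRC5 (0.21, adjusted p 0.284). For P1-a2 against P2-a8, 7 members differed, where 22.3% of genes did, and TAPBP (0.04, adjusted p 0.789) and NLRC5 (-0.39, adjusted p 0.0606) did not pass. For P2-a8 against NC, TAP1 passed with the replicate number as a block (adjusted p 0.0293) and without BxPC3 NC replicate 2 (0.0281). For P1-a2 against P2-a8, NLRC5 passed with the block (adjusted p 0.0363), with total counts alone (0.0416), with no filter on low counts (0.0493) and without Panc10.05 P2-a8 replicate 1 (0.042). The call on TAPBP under P1-a2 did not pass without BxPC3 NC replicate 1 (adjusted p 0.0525). Under P2-a8, HLA-B did not pass without Panc10.05 P2-a8 replicate 1 (adjusted p 0.154), Panc10.05 NC replicate 1 (0.0917) or 2 (0.0657), BxPC3 NC replicate 1 (0.115) or BxPC3 P2-a8 replicate 2 (0.0732). HLA-F did not pass when any one of the same 5 libraries was left out (adjusted p from 0.0609 to 0.112), and B2M did not pass without Panc10.05 P2-a8 replicate 2 (0.0769). TAP2 in the test of P1-a2 against P2-a8 did not pass without Panc10.05 P1-a2 replicate 1 (0.0529) or BxPC3 P1-a2 replicate 2 (0.0534). Line, dose, control construct and series of library numbers changed together in these tests and cannot be told apart.

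In AsPC-1, repression of HNF4A from both promoters was accompanied by a rise of HLA-B, HLA-C, HLA-E, B2M and TAPBP. HLA-B was 2.74-fold, B2M 2.33-fold, HLA-C 2.29-fold, TAPBP 2.0-fold and HLA-E 1.99-fold of its sgNC level. TAP1, TAP2, HLA-F and NLRC5 did not pass. The 5 of 9 members that rose stand against 17.8% of the 16992 genes tested that passed as higher and 35.6% that passed in either direction. The median log2 fold change of the members was 0.99 beside 0.00 over all genes. With a log2 fold change of at least 1 in size added, 4 members passed, against 9.06% of genes.

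HLA-B was at 11.1 and 11.9 CPM in the sgNC libraries, at 26.7 and 27.8 CPM with sgDual2 and at 36.4 and 35.6 CPM with sgDual3. All 4 sgDual libraries were above both sgNC libraries, and HLA-B rose by 1.46 on the log2 scale (SE 0.22, adjusted p 0.000217). HLA-C was at 25.7 and 25.9 CPM with sgNC, 50.02 and 55.7 CPM with sgDual2, and 62.8 and 67.5 CPM with sgDual3 (log2 fold change 1.20, SE 0.15, adjusted p 4.49e-05). HLA-E was at 101 and 113 CPM with sgNC, and its sgDual libraries were at 190.3, 207, 220.4 and 233 CPM (log2 fold change 0.99, SE 0.14, adjusted p 0.000121). B2M, which led these genes in AsPC-1 per length, was at 361 and 409.7 CPM with sgNC and at 857, 940.5, 872 and 925.5 CPM with sgDual. B2M rose by 1.22 on the log2 scale (SE 0.16, adjusted p 4.36e-05). TAPBP was at 75.7 and 90.5 CPM with sgNC and at 152.5, 166, 173.5 and 174 CPM with sgDual (log2 fold change 1.00, SE 0.15, adjusted p 0.000136). These 5 genes therefore had no overlap between sgDual and sgNC libraries. The share of all genes that separate in this way was not counted, so no conclusion is drawn from the lack of overlap. The summed epithelial markers of the sgDual libraries, from 11300 to 16000 CPM, spanned the sgNC libraries at 14300 and 14600 CPM. The summed leukocyte markers were between 1.55 and 2.18 CPM with sgDual and at 2.79 and 3.08 CPM with sgNC, with CD3E at 0 counts in every AsPC-1 library, and their part in the result was not tested.

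The transporter genes and the transactivator gave another picture in the same libraries. TAP1 was at 37.3 and 32.6 CPM with sgNC and at 38.5, 37.0, 39.9 and 41.8 CPM with sgDual (log2 fold change 0.17, 95% interval 0.03 to 0.32, adjusted p 0.0879). TAP2 was at 20.8 and 17.3 CPM with sgNC and between 15.2 and 18.8 CPM with sgDual (log2 fold change -0.17, interval -0.39 to 0.05). NLRC5 was at 15.9 and 13.7 CPM with sgNC and at 14.4, 12.1, 13.8 and 11.03 CPM with sgDual (log2 fold change -0.21, interval -0.45 to 0.04). HLA-F had between 46 and 58 counts in the sgDual libraries and 49 and 52 in sgNC (log2 fold change -0.09, interval -0.64 to 0.46), which is the widest interval of the 9. For each of these 4 genes the sgDual and sgNC libraries overlapped. Of the members with the X2 box letters in the windows printed or described above, HLA-B and HLA-C rose and TAP2 did not pass. Of the members whose windows lacked these letters, B2M and TAPBP rose and TAP1 and HLA-F did not pass. Only exact matches were counted, and the windows of B2M (tgacgg) and HLA-F (taacgc) hold close variants. The TAP2 match, from -35 to -30, also lies nearer the start site than those of HLA-B and HLA-C. This split therefore cannot tell members with the box from members without it, and no conclusion is drawn from it.

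With sgP1, 0 of the 9 members passed, where 0.265% of genes did, and 6 of the 9 had an unadjusted p under 0.05, where 8.92% of genes had. DESeq2 called 2, HLA-B (adjusted p 0.0255) and HLA-C (0.0144), where it called 1.42% of genes. HLA-B was at 21.3 and 22.6 CPM with sgP1E and at 17.2 and 17.3 CPM with sgP1J, all above the sgNC libraries (log2 fold change 0.77, SE 0.21, adjusted p 0.203). HLA-C was at 43.3 and 44.6 CPM with sgP1E and at 31.7 and 36.2 CPM with sgP1J, again above sgNC (0.60, SE 0.15, adjusted p 0.126). The median log2 fold change of the members was 0.42 beside 0.01 over all genes. With sgP2, 0 of 9 members passed, where 3.42% of genes did, and 4 had an unadjusted p under 0.05, where 17.8% of genes had. DESeq2 also called 0 members there, where it called 6.66% of genes. HLA-B was at 8.47 and 8.76 CPM with sgP2D and at 14.6 and 12.4 CPM with sgP2G, on either side of the sgNC libraries (log2 fold change -0.06, interval -0.47 to 0.36). Without guide sgP1J, 5 members passed in the comparison of sgP1 with sgNC, where 7.35% of genes did, and without sgP1J replicate 1, 3 did, where 0.849% of genes did.

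The guides of 1 target differed in these genes. With sgP1E, HLA-B, HLA-C, HLA-E, HLA-F and B2M were higher than with sgP1J, 5 of 9 members where 14.5% of genes passed. B2M was at 600.4 and 635 CPM with sgP1E and at 390.4 and 491 CPM with sgP1J (log2 fold change 0.49, SE 0.10, adjusted p 0.00589). HLA-E was at 166 and 167.5 CPM with sgP1E and 110.5 and 129.8 CPM with sgP1J (0.47, SE 0.09, adjusted p 0.00266). TAPBP was added with the replicate number as a block (adjusted p 0.00372), where 27.2% of genes passed. HNF4A was at 144 and 145.5 CPM with sgP1E and at 118 and 109 CPM with sgP1J, so the 5 genes that passed were higher with the guide that left more HNF4A. TAP2 and NLRC5 did not pass, nor did TAP1, which was lower in both sgP1E libraries than with sgP1J (-0.09, adjusted p 0.48). The summed epithelial markers ran from 8300 to 18000 CPM over the sgP1 libraries and from 14300 to 14600 CPM with sgNC. The part of this spread in the sgP1 results was not tested. With sgP2D, HLA-B (-0.65, SE 0.10, adjusted p 0.00289) and HLA-F (-0.82, SE 0.18, adjusted p 0.0395) were lower than with sgP2G, 2 of 9 members where 1.69% of genes passed. Between sgDual2 and sgDual3, 0 of 9 passed, where 0.883% of genes did, and 3 had an unadjusted p under 0.05, where 8.37% of genes had. HLA-B came nearest (-0.40, adjusted p 0.0531), and with the block HLA-B (adjusted p 0.00587) and HLA-C (0.0367) passed as lower with sgDual2, where 3.28% of genes passed.

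Set against sgNC guide by guide, which was added after the data were seen, 6 members rose with sgP1E, where 8.62% of genes passed. These were HLA-B (0.93, adjusted p 4.54e-05), HLA-F (0.84), HLA-C (0.77), B2M (0.68), HLA-E (0.64) and NLRC5 (0.47, adjusted p 0.0492). With sgP1J, HLA-B (0.58, adjusted p 0.00355) and HLA-C (0.40, adjusted p 0.0379) rose, 2 of 9 where 3.04% of genes passed. With sgP2D, HLA-E rose (0.36, adjusted p 0.0204) and HLA-B fell (-0.42, adjusted p 0.0186), 2 of 9 where 8.52% of genes passed. With sgP2G, HLA-E (0.40, adjusted p 0.0122) and HLA-F (0.81, adjusted p 0.0149) rose, 2 of 9 where 8.16% of genes passed. With sgDual2 the 5 genes named for sgDual rose, where 36.9% of genes passed, and with sgDual3 the same 5 and TAP1 (0.23, adjusted p 0.0395) rose, where 37.2% passed. All 6 of these comparisons share the 2 sgNC libraries.

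**Figure D3:**
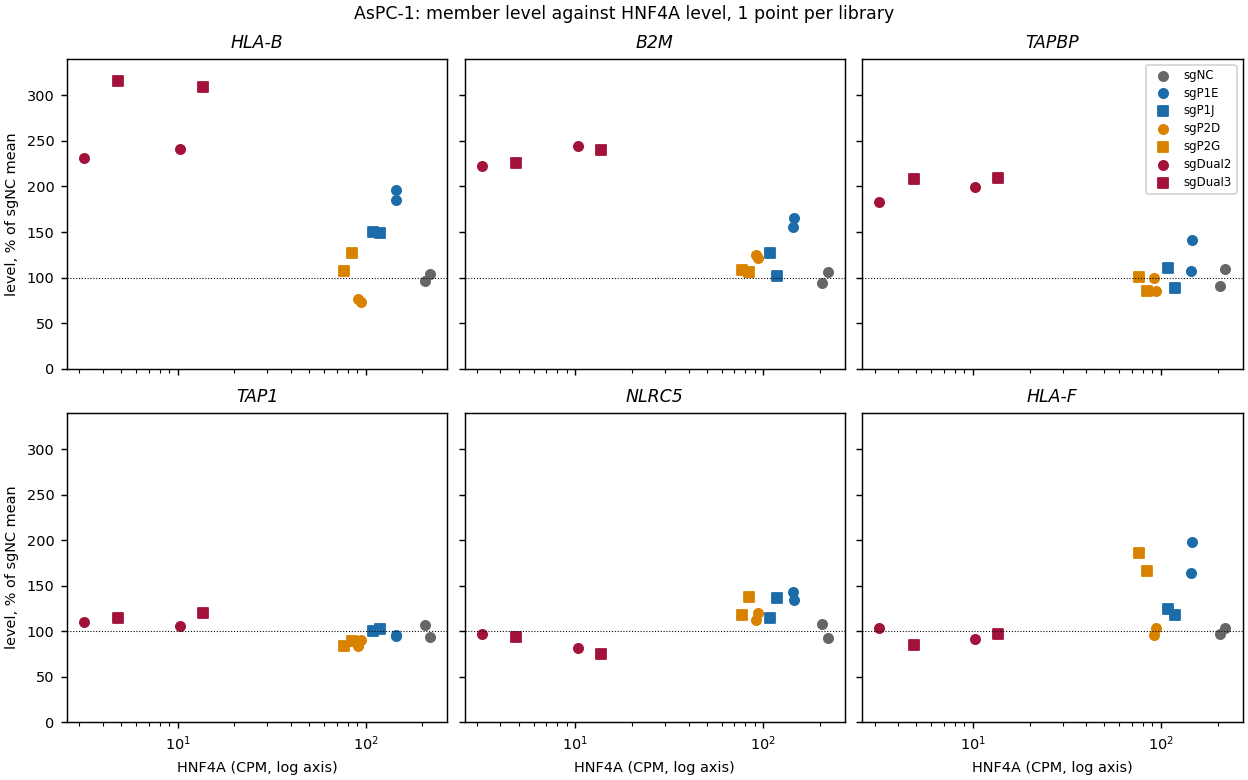
Level of 6 genes in each of the 14 AsPC-1 libraries, as a percentage of the sgNC mean (vertical axis, from 0), against the HNF4A level of the same library in CPM (log axis); circles and squares are the guides of each target and the dotted line is 100%. HLA-B, B2M and TAPBP are highest in the 4 sgDual libraries, where HNF4A is between 3.19 and 13.6 CPM, while TAP1, NLRC5 and HLA-F of those libraries lie around or among the sgNC values.

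The plot of member level against HNF4A level shows the AsPC-1 libraries in separate groups, so no correlation over them is given. HNF4A at 40.6% of control with sgP2 went with HLA-B at 95.9% and B2M at 115% of control. HNF4A at 60.7% with sgP1 went with HLA-B at 170.0% and B2M at 137%, and HNF4A at 3.76% with sgDual went with HLA-B at 274% and B2M at 233%. The order of HLA-B over the targets was therefore not the order of HNF4A, since sgP2 libraries had less HNF4A than sgP1 libraries. Tested directly, sgP2 was below sgP1 for HLA-B (log2 fold change -0.82, SE 0.17, adjusted p 0.0162) and HLA-C (-0.72, SE 0.12, adjusted p 0.00378), 2 of 9 members where 4.3% of genes passed. The libraries of a target served as replicates in that test, although HLA-B differed between the guides of each target. HLA-B did not pass without sgP2D replicate 1 (adjusted p 0.0513), without guide sgP1E (0.0552) or with only these groups fitted (0.0685), and neither gene passed without guide sgP2D (0.132 and 0.062).

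Against sgP1, sgDual was higher for HLA-B, HLA-C, HLA-E, B2M, TAP1 and TAPBP and lower for HLA-F and NLRC5, 8 of 9 members where 38.3% of genes passed. TAPBP differed by 0.84 (SE 0.11, adjusted p 6.46e-05), B2M by 0.76 (SE 0.12, adjusted p 0.000202) and NLRC5 by -0.61 (SE 0.10, adjusted p 0.0003) on the log2 scale. HLA-F differed by -0.68 (SE 0.22, adjusted p 0.0235), a call that did not pass when sgP1E replicate 1 or 2, sgDual3 replicate 1, sgDual2 replicate 2, or guide sgP1E, sgDual2 or sgDual3 was left out (adjusted p from 0.0537 to 0.284). TAP1 (0.20, adjusted p 0.017) did not pass without sgDual3 replicate 2 (adjusted p 0.0612), without guide sgP1E (0.0854) or sgDual3 (0.179), or with no filter on low counts (0.074). HLA-B did not pass without guide sgP1J (adjusted p 0.0582) or sgDual3 (0.0852). Without guide sgDual3, 5 members passed, where 25.7% of genes did. Against sgP2, 6 members were higher with sgDual and NLRC5 was lower, 7 of 9 where 46.4% of genes passed. HLA-F passed too, as lower, with total counts alone (adjusted p 0.0482) and without sgP2D replicate 1 (0.0327), replicate 2 (0.0207) or the whole guide (0.00521). HLA-B differed by 1.51 (SE 0.17, adjusted p 9.37e-06), HLA-C by 1.32 (SE 0.12, adjusted p 8.82e-07) and NLRC5 by -0.49 (SE 0.10, adjusted p 0.00109). NLRC5 was thus lower with sgDual than with either guide pair directed to 1 promoter, while the heavy chains HLA-B, HLA-C and HLA-E were higher.

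The other genes of the route were taken from lists written from general knowledge of the pathway, with earlier results of these data known. Of 11 genes for peptide supply and assembly, 8 fell and 1 rose under P1-a2 in Panc10.05, where 62.0% of all genes passed in either direction and 30.5% as lower, and 8 fell and 1 rose in BxPC3, where 32.0% passed in either direction. The immunoproteasome subunits PSMB8 and PSMB9, which replace constitutive subunits in interferon-treated cells, fell by 1.75 (adjusted p 6.2e-25) and 2.83 (adjusted p 3.06e-25) on the log2 scale in Panc10.05, and by 0.79 (adjusted p 7.22e-05) and 1.12 (adjusted p 3.36e-05) in BxPC3. PSMB10, the third of these subunits, did not pass in Panc10.05 (-0.16, adjusted p 0.276) and fell by 0.59 in BxPC3 (adjusted p 0.00752). PSMB9 was at between 32.8 and 35.8 CPM in Panc10.05 NC and between 4.21 and 5.35 CPM under P1-a2. CANX, the gene of the chaperone calnexin, was the one of the list that rose in either line (0.70 and 0.27) and is named for that reason. Their constitutive counterparts PSMB5, PSMB6 and PSMB7 did not pass in Panc10.05 under P1-a2, and in BxPC3 PSMB5 and PSMB7 rose by 0.49 and 0.44. Under P2-a8, 5 of the 11 fell and 2 rose in Panc10.05, where 46.2% of genes passed. In BxPC3, 0 of the 11 passed under P2-a8 by edgeR's quasi-likelihood test, where 6.99% of genes did, and 3 had an unadjusted p under 0.05, where 20.7% of genes had. PSMB9 and TAP1 overlap on opposite strands, so their counts are uncertain together.

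With sgDual, 3 of the 11 peptide supply genes rose and 1 fell, a share near the 35.6% of all genes that passed. PSMB9 did not pass (0.72, adjusted p 0.11). PSMB10 rose by 0.84 (adjusted p 0.0014), PSMB8 by 0.58 (adjusted p 0.00436) and ERAP2, an aminopeptidase that trims peptides, by 0.51 (adjusted p 0.00671). CALR, encoding the chaperone calreticulin and named because it was the one that fell, was at -0.22 (adjusted p 0.0239).

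**Figure D4:**
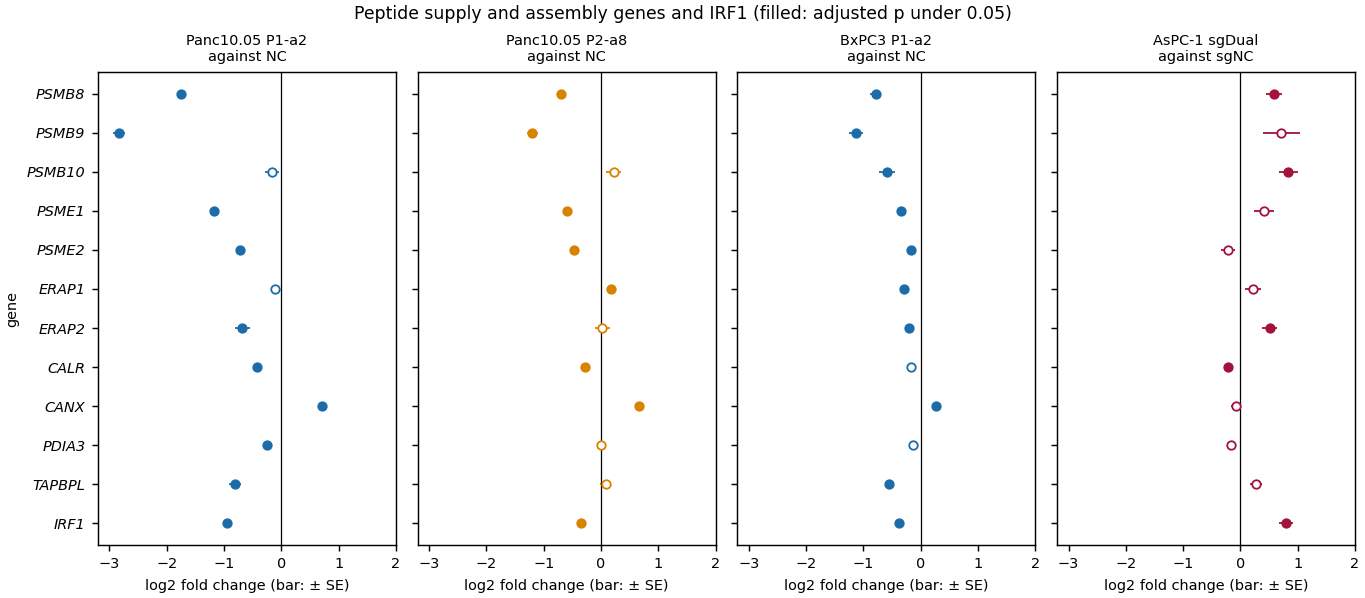
Log2 fold change from control, with bars of 1 SE, for 11 peptide supply and assembly genes and for IRF1 in 4 comparisons; filled points have an adjusted p under 0.05 by edgeR's quasi-likelihood test. PSMB8 and PSMB9 lie left of 0 in both induced lines, and IRF1 lies right of 0 with sgDual.

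Of 20 regulators and interferon signalling genes, 13 fell and 3 rose in Panc10.05 under P1-a2, where 62.0% of all genes passed, and 9 fell and 2 rose in BxPC3, where 32.0% passed. IRF1, which acts at interferon response elements of class I promoters, fell by 0.94 and 0.38 on the log2 scale in these comparisons (adjusted p 9.22e-14 and 0.000656). IRF9 fell by 2.45 in Panc10.05 and by 1.06 in BxPC3. With sgDual, 8 of the 20 rose and 1 fell, where 35.6% of genes passed in either direction and 17.8% as higher. RFX5, a subunit of the complex that holds NLRC5 at class I promoters, rose by 1.04 (adjusted p 0.00058) and IRF1 by 0.80 (adjusted p 0.000139). IRF1 and RFX5 thus rose with sgDual while NLRC5 did not pass.

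The genes whose pattern was most like that of the members were sought over all 26 libraries, after each line was centred on its own mean. The mean of 8 members was used, without HLA-F, which was under 5 CPM in AsPC-1. Of 9311 genes compared, the 5 with the highest Pearson r were PTMS (0.963), PPT2 (0.962), IGFBP6 (0.958), CYBC1 (0.957) and PTPRA (0.954). The members themselves did not share 1 pattern in every line. HLA-B and HLA-C had an r of 0.992 in Panc10.05, -0.512 in BxPC3 and 0.984 in AsPC-1. For HLA-B and NLRC5 it was 0.984, 0.972 and -0.436 in the same order. The libraries share groups and control libraries, and the values are a description without a test.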

How the data were processed

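The deposited counts are whole numbers of reads per gene, 1 table for each line. Per the submitters' processing notes the tools were cutadapt 1.16, STAR 2.7.9a, featureCounts 1.6.3 and DESeq2 1.36.0 with build GRCh38. The annotation, strand setting and handling of multi-mapping reads are not given in the sources used here. Libraries were paired-end from a directional poly(A) kit, per the labels' protocols.

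Identifiers were matched to symbols for 99.88%, 99.88% and 99.91% of rows (Panc10.05, BxPC3, AsPC-1), and 0 columns were left unmapped. Each line was fitted on its own with edgeR 4.0.16 in R 4.3.3 (filterByExpr, TMM, robust glmQLFit, glmQLFTest, Benjamini-Hochberg adjustment over all genes tested, threshold 0.05). A joint fit of Panc10.05 and BxPC3 tested differences in response, and a fit by guide tested guides. CPM are counts scaled by the TMM-normalised library size, which was taken over the genes kept by the filter. The fits of single lines were tested on counts simulated from the tables with 200 genes changed by 1 on the log2 scale and a dispersion of 0.01. The fit recovered 98.5% of them for P1-a2 against NC in Panc10.05 (16789 genes, 5 false calls), 95% for P1-a2 against NC in BxPC3 (17186 genes, 9 false calls) and 97.5% for sgDual against sgNC in AsPC-1 (16614 genes, 11 false calls). The simulated counts had the same dispersion for every gene, no differences between guides and no shared deviation of same-numbered libraries. The AsPC-1 data have guide differences, and BxPC3 and AsPC-1 have the shared deviation. The figures therefore check the code and do not give error rates for the real fits. Intervals called 95% are the log2 fold change with the normal multiplier of its SE, and cover the fitted spread between libraries. With so few libraries they are narrower than 95% intervals matched to the quasi-likelihood test. Coordinates are from GENCODE v29, and promoter windows from RefSeq. Tables and figures were made with pandas 2.3.3, numpy 2.4.6 and matplotlib 3.10.9 under Python 3.11.15.

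The members and lists were chosen with earlier results of these data known. All 9 members are named throughout. Of each other list, the 3 largest called changes may be named, with IRF1, PSMB8, PSMB9, PSMB10, ERAP1 and CIITA, and genes outside this rule are marked as such. Some genes of these lists are counted but not reported here by name. Likeness used log2(CPM + 0.5) of genes with a mean of at least 5 CPM in every line.

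Same-numbered libraries deviated together in BxPC3 (3 of 3 pairs of groups over r = 0.1, from 0.131 to 0.24) and AsPC-1 (21 of 21, from 0.148 to 0.496) but not in Panc10.05 (0 of 3). The pairing therefore comes from the data, and values with the replicate block are given where they change a call. Alternatives were total counts alone, DESeq2 1.42.0, no filter on low counts, only the compared groups fitted, the replicate block, leaving out each library or guide, and a required log2 change of at least 1 in size. The comparison of single guides with sgNC, the principal transcript length and the joint fit without a filter were added after seeing the data.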

Additional observations from a re-analysis of the deposited data

Results flagged for a closer look

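Responses that differed between Panc10.05 and BxPC3 by the interaction term of edgeR's quasi-likelihood test are listed with the log2 fold change in Panc10.05 minus that in BxPC3. For P1-a2 against NC these were HLA-B (-1.22), HLA-C (-1.20), HLA-E (-1.05), HLA-F (-1.44), B2M (-1.31), TAP1 (-0.96), TAP2 (-0.71) and TAPBP (-0.28). For P2-a8 against NC they were HLA-B (-0.32), HLA-C (-0.66), HLA-E (-0.41), HLA-F (-0.47), B2M (-0.38), TAP2 (-0.37) and TAPBP (-0.32). For P1-a2 against P2-a8 they were HLA-B (-0.90), HLA-C (-0.55), HLA-E (-0.64), HLA-F (-0.97), B2M (-0.93), TAP1 (-0.71) and TAP2 (-0.34). Every one of these 22 differences was negative. The third contrast is the first minus the second, so its values are not separate evidence. Among all genes that differed for P1-a2 against NC, 3898 were lower in Panc10.05 and 3150 higher. These numbers were 2308 and 2237 for P2-a8 against NC, and 2611 and 1707 for P1-a2 against P2-a8. The sets of P1-a2 against NC and of P2-a8 against NC share the NC libraries, and line, dose, control construct and series of library numbers cannot be told apart. Of 27 sets of 4 AsPC-1 libraries examined for a library far from the others of its target, none held one, where chance gives about 1 in 20. Each set joined the guides of a target, and differences between guides widen its spread. A single library could therefore hardly stand out, and no conclusion is drawn from this check.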

How the results depend on the processing

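With a log2 change of at least 1 in size also required, fewer members passed by construction. In Panc10.05 there were 0 for P2-a8 against NC and 1 between isoforms. In BxPC3 there were 1 for P1-a2, 0 for P2-a8 and 0 between isoforms, and 0, 0 and 4 for sgP2 against sgP1, sgDual against sgP1 and sgDual against sgP2. The replicate block gave 9 members for P1-a2 against NC and 5 for P2-a8 against NC in BxPC3, and 2 for sgDual2 against sgDual3. Beyond those and the single calls given above with the block (TAPBP between sgP1 guides, and TAP1 and NLRC5 between lines), it changed no other call. DESeq2 gave 2 members for sgP1 against sgNC. Fitting only the compared groups gave 1 for sgP2 against sgNC and 1 for sgP2 against sgP1. Leaving out guide sgP1J gave 5 for sgP1 against sgNC and 4 for sgP2 against sgP1, where leaving out sgP1E gave 1 and sgP2D gave 0. Leaving out sgDual3 gave 5 for sgDual against sgP1. The cause of these moves was not tested, beyond the smaller number of libraries.

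Leaving out 1 library at a time gave 9 members in each Panc10.05 comparison, 4 to 5, 2 to 2 and 1 to 3 in the BxPC3 comparisons in the order above, and 5 to 5 for sgDual against sgNC. It gave 0 to 3 for sgP1 against sgNC, 0 to 0 for sgP2 against sgNC, 1 to 3 for sgP2 against sgP1, and 7 to 8 for sgDual against either sgP1 or sgP2. The differences between lines gave 7 to 8, 5 to 8 and 6 to 8.

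Of the members' recomputed log2 fold changes, 1569 kept their direction and side of the threshold, 41 were no longer past it, 36 came to pass it and 28 changed sign. No value that changed sign was past the threshold, in the main fit or the alternative. In BxPC3 these log2 fold changes were HLA-C (-0.00591 to 0.137 over libraries left out) and HLA-F (-0.155 to 0.0181) for P2-a8, and HLA-C (-0.0128 to 0.132) between isoforms. For sgP1 against sgNC they were TAP1 with total counts alone (0.00108), without guide sgP1E (0.0128) and with libraries left out (-0.122 to 0.0659), TAP2 with libraries left out (-0.239 to 0.0265) and TAPBP without sgP1E (-0.0161). For sgP2 against sgNC they were HLA-B with libraries left out (-0.229 to 0.0496) or without guide sgP2D (0.225), HLA-F without sgP2G (-0.0113) and TAPBP with libraries left out (-0.246 to 0.0148). For sgP2 against sgP1 they were HLA-E with libraries left out (-0.148 to 0.0403) or without guide sgP1E (0.218), HLA-F with libraries left out (-0.309 to 0.0208), without guide sgP1E (0.196) or without sgP2D (0.217), and B2M without guide sgP1E (0.0144). For sgDual against sgP1, TAP2 changed sign without sgP1E (0.00294) or sgDual2 (0.0221). Between guides, TAP1 did so for sgP2D against sgP2G with total counts alone (-0.00641) and B2M for sgDual2 against sgDual3 with total counts alone (-6.25e-05) or the replicate block (-0.000987). Between lines, TAPBP did so for the difference between isoforms with libraries left out (-0.00917 to 0.0766). The cause was not tested. HLA-F, with 43 to 135 counts per AsPC-1 library, is the member whose precision depth limits most.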

Other observations

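The MHC class II genes, which present peptides to CD4+ T cells and depend on the transactivator CIITA as class I genes do on NLRC5, differed between guides of the same target in AsPC-1. Of 7 tested, 5 were lower with sgP2D than with sgP2G, where 1.69% of all genes passed, and 4 were lower with sgDual2 than with sgDual3, where 0.883% passed. Between sgP1E and sgP1J, 1 was higher and 2 were lower, where 14.5% of genes passed. Against sgNC, a comparison added after the data were seen, 6 rose with sgP1E (8.62% of genes passed), 5 with sgP1J (3.04%), 5 with sgP2G (8.16%), 4 with sgDual2 (36.9%) and 7 with sgDual3 (37.2%), while 2 fell with sgP2D (8.52%). CIITA was at 0.539 and 0.578 CPM with sgNC, at 0.155 and 0.339 CPM with sgP2D and at 2.28 and 3.15 CPM with sgP2G. The guides sgP2D and sgP2G, both directed to P2, lay on opposite sides of sgNC and differed by -3.38 on the log2 scale for CIITA (SE 0.32), with an adjusted p of 5.32e-05 from the quasi-likelihood test of edgeR. CD74, the invariant chain of class II molecules, differed by -4.04 between them (SE 0.18, adjusted p 2.08e-08), with 0.541 and 0.525 CPM against 9.35 and 8.25 CPM. Between sgDual2 and sgDual3, CIITA differed by -1.39 (adjusted p 0.0148) and CD74 by -1.40 (adjusted p 3.23e-05). HNF4A was at 93.9 and 91.4 CPM with sgP2D and at 84.0 and 76.8 CPM with sgP2G. With the guides pooled by target, 0 of the 7 class II genes tested passed for sgP1 or sgP2 against sgNC by edgeR's quasi-likelihood test, where 0.265% and 3.42% of genes did, and 3 and 0 had an unadjusted p under 0.05. With sgDual 2 of the 7 rose, where 35.6% of genes passed. CIITA was at most at 99 counts in a library.

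In Panc10.05, where all 9 class I genes fell, 6 of 7 class II genes tested rose under P2-a8, where 46.2% of all genes passed. Under P1-a2, 2 rose and 1 fell, where 62.0% passed. HLA-DMA, named because it was the one that fell, was at -0.92 under P1-a2 (adjusted p 7.98e-09) and at 0.32 under P2-a8 (adjusted p 0.0152). CD74 was at 2.02 and 1.62 CPM in NC, 6.09 and 7.70 CPM under P1-a2 and 10.8 and 9.61 CPM under P2-a8. Its log2 fold change under P2-a8 was 2.47 (SE 0.16, adjusted p 8.28e-17) and under P1-a2 1.91 (SE 0.17, adjusted p 1.71e-13). CIITA was at 17 and 12 counts in NC and 12 and 21 counts under P2-a8, and did not pass (0.10, adjusted p 0.887).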
